A study of Mus musculus with 12 samples.

Results

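The hypoxia and glycolysis genes are a list of 38 genes whose products sense oxygen, answer its shortage, or carry glucose to lactate. They were chosen by name, and all 38 were found among the 56691 genes measured (39 rows, because Aldoa stands on 2 rows), and all 38 passed the filter on low counts. RNA was sequenced from palatal shelves, embryonic flaps that grow out from either side of the mouth and fuse into the palate, microdissected from mouse embryos at gestational day 12. There were 4 groups of 3 libraries: wild type without treatment (the control), a conditional Dnmt1 knockout without treatment, wild type with 5-aza-2'-deoxycytidine (AzadC), and wild type with its vehicle. Each library pooled the shelves of 2 embryos of the same genotype, so 6 embryos stood behind a group, and the sampling protocol spread each genotype over several litters. Dnmt1 copies DNA methylation to new strands, and AzadC is a cytidine analogue that traps such enzymes on DNA. The Cre driver, the deleted exons, the AzadC dose and the time of dosing were not given in the sources used here. Because the knockout is conditional, cells in which the recombinase was not active would keep the gene.

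Cells sense oxygen through prolyl hydroxylases (the Egln genes), which in normal oxygen mark the HIF alpha proteins for destruction through the Vhl ubiquitin ligase. When oxygen falls, HIF alpha proteins pair with Arnt, bind the core ACGTG or GCGTG in DNA, and switch on genes for glucose uptake, glycolysis, lactate export, vessel growth and mitochondrial clearance. Hif1a is controlled mainly through its protein, so its mRNA need not move with its targets. Growing embryonic mesenchyme relies on glycolysis, and the vessels drawn by Vegfa bring its oxygen.

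The libraries held 12640536 (AzadC 1) to 33113790 (control 1) expected counts. Levels are given in CPM, counts scaled to the size of each library with edgeR's TMM factors. Dnmt1 itself measured 286, 278 and 258 CPM in control and 201, 179.6 and 191 CPM in knockout. In vehicle it measured 452, 451 and 448 CPM and in AzadC 408, 482 and 411 CPM, so the knockout libraries were the lowest of the 12 and the wild type references differed from each other. All 14 markers of palatal mesenchyme were detected in every group, with summed levels of 2139 to 2661 CPM in control, 1604 to 2091 in knockout, 1729 to 2209 in vehicle and 2037 to 2151 in AzadC. Markers of other cell types differed between the groups. In the knockout against the control 7.83% of all genes tested were higher and 6.43% lower by edgeR. All 12 macrophage markers exceeded the control in the knockout by edgeR (summed 347.6 to 384.1 against 73.6 to 103 CPM; 154 to 167 in AzadC and 96.2 to 118 in vehicle). Of the skeletal muscle markers 11 of 14 tested were higher (206 to 1235 against 8.10 to 122 CPM). Muscle sums were 53.2 to 497 CPM in vehicle and 46.9 to 209 CPM in AzadC, and both overlapped the knockout. Against the vehicle, 0 of 14 muscle markers passed the edgeR test in the knockout (median 1.64 on the log2 scale). Ckm was at 0 in all knockout and all vehicle libraries. All 10 cartilage markers tested were lower in the knockout than in control (475 to 729 against 1090 to 3403 CPM). Snorc was at 0 in all knockout, vehicle and AzadC libraries, and Matn1 was at 0 in all AzadC libraries. In the knockout 4 of 8 bone markers tested, 5 of 14 palatal mesenchyme markers and 2 of 12 endothelial markers were also lower. Their part in the results below was not tested, and in bulk tissue fewer cells of a type and less RNA per cell cannot be told apart. Each test measures only the spread between pooled libraries.

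**Figure D1:**
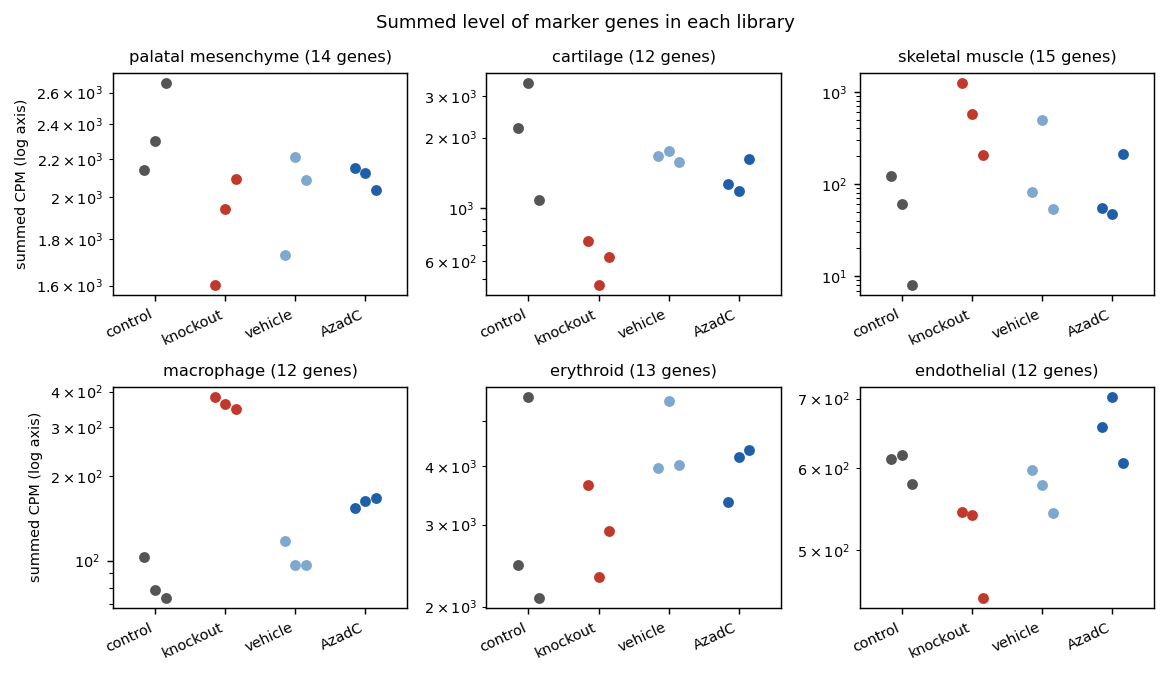
Summed level of marker genes (CPM, log axis) in each library, for the labelled tissue and for 5 other cell types. Each point is 1 library. Macrophage sums of the knockout (348 to 384 CPM) lie above every other library, and cartilage sums of the knockout (475 to 729 CPM) lie below every other library.

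Measured in TPM, a unit scaled to transcript length so that genes can be compared, glycolytic enzymes were the most abundant members. Gapdh averaged 2416 TPM over the 12 libraries, Pkm, which makes pyruvate, 804 TPM, Eno1 555 TPM, Tpi1 419.8 TPM and Ldha 412 TPM. Below them Pgam1, Pgk1, Aldoa and Gpi1 lay between 191 and 322 TPM. Vegfa reached 133 TPM, Hif1a 49.6 TPM and its paralogue Epas1 8.09 TPM. The secreted or surface products most used as signs of severe hypoxia stood lowest, Adm at 1.56 TPM and Car9 at 1.11 TPM.

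Against the control, 12 of the 38 members fell and 2 rose with loss of Dnmt1 (edgeR quasi-likelihood test, adjusted p below 0.05 over the 17335 genes tested). Of all genes tested 6.43% fell and 7.83% rose, 14.3% in either direction. Those that fell were Vegfa, Pdk1, Slc2a1, Hk1, Pfkm, Pfkfb4, Tpi1, Eno2, Bnip3, Egln1, P4ha2 and Higd1a, and those that rose were Pfkp and Gapdh. The 3 knockout libraries lay below all 3 control libraries for 17 members (44.7%, against 15.1% of all genes) and above them for 3 members (7.89%, against 16.9%). The median change of the members was -0.17 on the log2 scale, and that of all genes was -0.00. At an unadjusted p below 0.05 by edgeR, 20 members were lower and 5 higher, against 13.3% of all genes lower and 14.6% higher. The count of lower members fell to 5 without control 1, to 5 without knockout 1 and to 6 without knockout 2. The count of higher members became 0 without control 2, control 3, knockout 1 or knockout 2 and 5 without knockout 3. Fitted on the knockout and control libraries alone, the calls of Bnip3, Egln1, Pfkm, Pfkp and Slc2a1 were lost (edgeR adjusted p = 0.054 to 0.0843), and with no filter on low counts that of Pfkm was (0.0547). With the replicate number as a block on the knockout and control libraries, whose numbers deviated together, 10 members were lower and 4 higher, since Pfkm, Bnip3 and Egln1 lost the call and Pfkl, Gpi1 and Eno1 gained it.

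**Figure D2:**
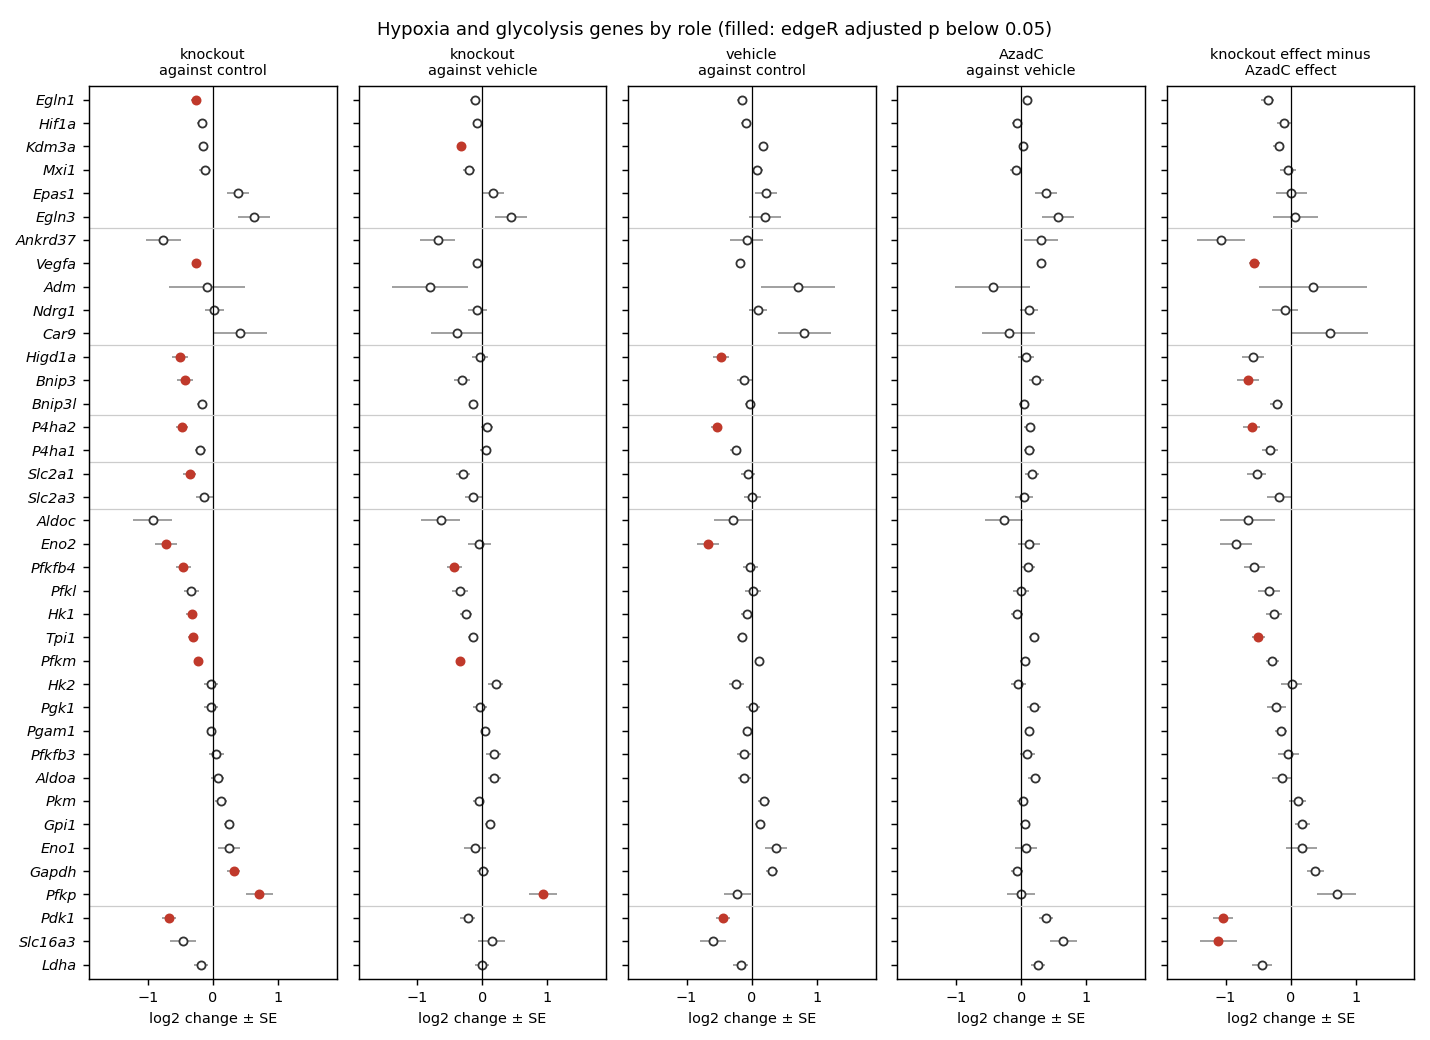
Change of each of the 38 members on the log2 scale with its standard error, in 5 comparisons, ordered by role (regulators, hypoxia effectors, mitochondria, collagen hydroxylases, glucose entry, glycolytic enzymes, lactate and pyruvate fate). Filled points passed the edgeR test. 14 points are filled for the knockout against the control, 4 against the vehicle, 4 for vehicle against control, 0 for AzadC against vehicle, and 6 for the difference of the knockout and AzadC effects.

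Among the regulators, Hif1a, the oxygen-labile factor, stood at 132, 137 and 161 CPM in control, 120.3, 133 and 129.6 CPM in knockout, 141, 129 and 133 CPM in vehicle, and 132, 126 and 129 CPM in AzadC. All control libraries lay above all AzadC libraries, the other groups overlapped, and its change in the knockout was -0.17 ± 0.07 (log2, SE; edgeR adjusted p = 0.156). Epas1, which encodes HIF-2 alpha and is strong in endothelium, stood at 23.8, 18.4 and 20.2 CPM in control and 33.9, 29.3 and 18.6 CPM in knockout. In vehicle it stood at 24.3, 26.0 and 22.8 CPM, and in AzadC at 31.8, 33.2 and 30.1 CPM. The third knockout library lay within the control range, while all AzadC libraries lay above all vehicle libraries. Neither change passed the test (knockout 0.39 ± 0.17, edgeR adjusted p = 0.153; AzadC 0.38 ± 0.17, edgeR adjusted p = 0.777), and without knockout 3 the knockout change did (edgeR adjusted p = 0.00707).

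Egln1, the main oxygen sensor that marks HIF alpha for destruction and is itself a HIF target, stood at 75.3, 62.9 and 70.6 CPM in control and 55.1, 58.5 and 60.9 CPM in knockout. In vehicle it stood at 60.5, 62.0 and 66.1 CPM and in AzadC at 66.6, 68.7 and 66.0 CPM. Every knockout library lay below every control library, and the change was -0.26 ± 0.07 (edgeR adjusted p = 0.0321). The call was lost without control 1, control 3, knockout 1 or knockout 2 (edgeR adjusted p = 0.0807 to 0.112), and with the replicate block (edgeR adjusted p = 0.0797). Egln3, the more inducible sensor, was at 3.88 to 6.05 CPM in control, 5.27 to 10.5 in knockout, 5.30 to 6.37 in vehicle and 7.27 to 10.3 CPM in AzadC, and passed no test. Mxi1, a MYC antagonist, was at 34.1 to 45.1 CPM in all 12 libraries and passed no test. Kdm3a, a HIF-induced histone demethylase, stood at 112, 113 and 124 CPM in control, 109.5, 103 and 102 CPM in knockout, 138, 129.9 and 126 CPM in vehicle, and 134, 136 and 132 CPM in AzadC. Against the vehicle its change in the knockout was -0.33 ± 0.06 (edgeR adjusted p = 0.00332), a call kept under every alternative, and against the control it was -0.15 ± 0.06 (edgeR adjusted p = 0.112).

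Vegfa (ENSMUSG00000023951, chr17:46016993-46032369 on the minus strand, mm10), the signal that draws blood vessels toward poorly oxygenated tissue, had the tightest libraries of the members that fell. It stood at 123, 127 and 126 CPM in control, 110.3, 103 and 101 CPM in knockout, 107, 116 and 108 CPM in vehicle, and 131, 143 and 133 CPM in AzadC. Knockout lay below control, and AzadC lay above all other libraries. The change in the knockout against the control was -0.26 ± 0.06 (edgeR adjusted p = 0.0097), and it stayed past the threshold under every alternative (highest adjusted p over edgeR, DESeq2 and limma-voom 0.047). Against the vehicle it was -0.08 ± 0.06 (edgeR adjusted p = 0.449), and the libraries overlapped. Endothelial marker sums stood at 449.9 to 544 CPM in knockout and 579.5 to 618 CPM in control, and at 606 to 703 CPM in AzadC and 543 to 597.5 CPM in vehicle, and the order of the group means of Vegfa was the same. Their part in the result was not tested. Of the other hypoxia effectors, Ankrd37, a small HIF target, was at 1.62 to 2.24 CPM in knockout and 2.26 to 4.29 CPM in control (-0.76 ± 0.27, edgeR adjusted p = 0.0737). Adm, a vasodilator peptide, Car9, a carbonic anhydrase of the cell surface, and Ndrg1, a stress-responsive gene, overlapped in every comparison and passed no test.

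Bnip3, which targets mitochondria for autophagy, stood at 31.3, 24.3 and 31.9 CPM in control and 20.6, 22.6 and 21.8 CPM in knockout. In vehicle it stood at 31.2, 24.4 and 25.2 CPM, and in AzadC at 32.2, 31.5 and 30.8 CPM. All 9 libraries outside the knockout lay above all 3 knockout libraries. The change against the control was -0.43 ± 0.12 (edgeR adjusted p = 0.027), and it was lost without control 1, control 3 or any single knockout library (edgeR adjusted p = 0.0611 to 0.0934), and with the replicate block (edgeR adjusted p = 0.0549). Its relative Bnip3l was at 109 to 124 CPM in knockout and 116 to 141 CPM in control and passed no test. Higd1a, a protein of the inner mitochondrial membrane that supports the respiratory chain, stood at 43.1, 35.0 and 34.0 CPM in control and 29.8, 26.7 and 22.3 CPM in knockout. In vehicle it stood at 25.9, 28.7 and 26.1 CPM, and in AzadC at 25.9, 28.2 and 30.9 CPM. The control libraries were the highest of the 12, and the other groups overlapped. Its change in the knockout was -0.51 ± 0.12 (edgeR adjusted p = 0.0134), and without control 1 the edgeR adjusted p was 0.0543.

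P4ha2 (ENSMUSG00000018906, chr11:54100095-54131665 on the plus strand, mm10), a subunit of the enzyme that hydroxylates proline in collagen, was highest in control, as Higd1a was. It stood at 65.0, 71.1 and 56.4 CPM in control, 42.8, 47.1 and 49.1 CPM in knockout, 44.8, 45.2 and 42.6 CPM in vehicle, and 50.6, 44.9 and 49.4 CPM in AzadC. All control libraries lay above the other 9, which overlapped. The change was -0.47 ± 0.09 in the knockout (edgeR adjusted p = 0.00365), kept under every alternative. Its paralogue P4ha1 was at 65.9 to 70.8 CPM in knockout and 76.3 to 81.8 CPM in control without passing the test (-0.20 ± 0.09, edgeR adjusted p = 0.156). Cartilage markers, of a tissue rich in collagen, moved the same way in the knockout, and across the 12 libraries the Pearson correlation of P4ha2 with the cartilage list was 0.78, a description over libraries that share their groups. The other members ran from -0.67 (Gapdh) to 0.74 (Hk1), with Higd1a at 0.67 and Eno2 at 0.65. In vehicle, where P4ha2 overlapped the knockout, cartilage sums of 1581 to 1757 CPM lay within the control range of 1090 to 3403 CPM. Taken gene by gene, the 10 cartilage markers tested had a median change of -1.30 (log2) in vehicle against control, and 2 were lower by edgeR. The part of cartilage was not tested.

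Slc2a1, which encodes the basal glucose transporter GLUT1, stood at 74.0, 58.0 and 65.3 CPM in control, 53.7, 47.5 and 53.0 CPM in knockout, 67.8, 64.7 and 57.3 CPM in vehicle, and 63.6, 71.8 and 77.1 CPM in AzadC. The knockout libraries were the 3 lowest of the 12. The change against control was -0.36 ± 0.10 (edgeR adjusted p = 0.0331), and it was lost without control 1, control 3 or any single knockout library (edgeR adjusted p = 0.055 to 0.141). Slc2a3, which encodes the high-affinity transporter GLUT3, was at 26.7 to 38.0 CPM in all libraries with overlap in every comparison. Slc2a1 also had the highest correlation of any member with the mean of the other members over the 12 libraries (Pearson r = 0.90), followed by Pfkl and Tpi1 at 0.83 and Ldha at 0.82. Pfkp, at -0.45, and Slc2a3, at -0.15, had the lowest. These are descriptions, since the libraries share 4 group means.

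Along glycolysis the enzymes did not move as a block. Of 17 glycolytic enzymes, 5 were lower in the knockout and 2 higher, and the median change was -0.03 (log2). Over all genes tested 6.43% were lower and 7.83% higher. Hexokinase 1, Hk1, which traps glucose in the cell, stood at 58.6, 52.5 and 48.0 CPM in control, 43.4, 41.6 and 42.2 CPM in knockout, 49.7, 55.1 and 46.6 CPM in vehicle, and 51.3, 48.5 and 45.1 CPM in AzadC. All 3 knockout libraries were the lowest of the 12. The change was -0.33 ± 0.09 (edgeR adjusted p = 0.0266), lost without control 1, control 2 or any single knockout library (edgeR adjusted p = 0.0548 to 0.0962). Hk2, the inducible hexokinase and a well known HIF target, was at 29.4 to 38.0 CPM in knockout and 33.3 to 36.4 CPM in control (-0.03 ± 0.11, edgeR adjusted p = 0.901). Gpi1, which turns glucose-6-phosphate into fructose-6-phosphate, was at 224 to 247 CPM in knockout and 183 to 222 CPM in control (0.24 ± 0.08, edgeR adjusted p = 0.0536; 0.0406 with the replicate block).

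The phosphofructokinases, which catalyse the committed step, split by isozyme. Pfkm, the muscle type, stood at 102, 106 and 93.8 CPM in control, 89.5, 83.4 and 85.0 CPM in knockout, 99.9, 117 and 109 CPM in vehicle, and 114, 112 and 111 CPM in AzadC. Its change in the knockout was -0.23 ± 0.07 against control (edgeR adjusted p = 0.0375) and -0.34 ± 0.07 against vehicle (edgeR adjusted p = 0.00545). The second call was kept under every alternative, while the first was lost without control 1, control 2 or any single knockout library (edgeR adjusted p = 0.0548 to 0.148), and with the replicate block (edgeR adjusted p = 0.0693). Pfkp, the platelet type, stood at 12.5, 12.3 and 7.76 CPM in control, 21.6, 17.4 and 14.6 CPM in knockout, 11.6, 8.68 and 8.03 CPM in vehicle, and 9.54, 7.93 and 10.6 CPM in AzadC. The knockout libraries were the 3 highest of the 12. Pfkp rose by 0.71 ± 0.21 against control (edgeR adjusted p = 0.0379) and by 0.93 ± 0.21 against vehicle (edgeR adjusted p = 0.0125). The former call was lost without control 2, control 3, knockout 1 or knockout 2 (edgeR adjusted p = 0.0588 to 0.147), and the latter without knockout 1 or vehicle 3 (edgeR adjusted p = 0.0508 to 0.0674). Within the knockout, muscle marker sums stood at 1235, 577 and 206 CPM in libraries 1, 2 and 3, the same order as Pfkp. Macrophage sums (384, 363 and 348 CPM), endothelial sums and neuronal sums had that order too. In vehicle 1, 2 and 3 the muscle sums were 82.3, 497 and 53.2 CPM, an order that Pfkp did not share. The part of any of these cell types in the rise of Pfkp was not tested. Pfkl, the liver type, was at 83.3 to 91.0 CPM in knockout and 93.8 to 130.3 CPM in control (-0.33 ± 0.12, edgeR adjusted p = 0.0876; 0.0407 with the replicate block).

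The regulatory enzymes that make the phosphofructokinase activator fructose-2,6-bisphosphate differed too. Pfkfb4 stood at 21.7, 22.4 and 21.2 CPM in control, 16.4, 14.2 and 17.1 CPM in knockout, 21.5, 21.3 and 21.4 CPM in vehicle, and 23.0, 26.6 and 19.6 CPM in AzadC. Knockout libraries were the lowest of the 12, and control and vehicle were nearly level. The change was -0.46 ± 0.11 against control (edgeR adjusted p = 0.0175) and -0.43 ± 0.11 against vehicle (edgeR adjusted p = 0.0276). These calls were lost without control 2 or knockout 2 (edgeR adjusted p = 0.0609 to 0.0856), and without knockout 1, knockout 2 or any single vehicle library (edgeR adjusted p = 0.0527 to 0.129). Pfkfb3 overlapped between knockout and control, at 33.6 to 36.5 and 29.0 to 39.6 CPM.

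In the middle of the pathway, Tpi1, which interconverts the triose phosphates, stood at 412, 366 and 384 CPM in control, 294, 323 and 325 CPM in knockout, 369, 352 and 323 CPM in vehicle, and 365, 427 and 398 CPM in AzadC. Knockout lay below control and below AzadC and overlapped vehicle. The change was -0.30 ± 0.07 (edgeR adjusted p = 0.0168), lost without control 1 or knockout 1 (edgeR adjusted p = 0.0559 to 0.0709). Gapdh, the next enzyme, went the other way. It stood at 1735, 1421 and 1511 CPM in control, 2031, 1958 and 1829 CPM in knockout, 2070, 1886 and 1827 CPM in vehicle, and 1654, 2101 and 1785 CPM in AzadC. Every knockout and vehicle library lay above every control library, and the change in the knockout was 0.32 ± 0.10 (edgeR adjusted p = 0.04), lost without control 2, control 3, knockout 1 or knockout 2 (edgeR adjusted p = 0.0877 to 0.154). The block on the 12 libraries gave an edgeR adjusted p of 0.0509 for Gapdh, and that on the knockout and control libraries 0.0168. Pgk1, which follows and yields ATP, stood at 326, 256 and 301 CPM in control, 278, 304 and 283 CPM in knockout, 344, 270.5 and 278 CPM in vehicle, and 323, 376 and 318 CPM in AzadC. Control, knockout and vehicle overlapped, and no change of Pgk1 passed the test (knockout against control -0.03 ± 0.11, edgeR adjusted p = 0.9).

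Toward pyruvate, Eno2, the neuronal enolase, was lower in the knockout by -0.72 ± 0.17 (edgeR adjusted p = 0.014), the largest fall among the members that passed. It stood at 16.1, 20.2 and 20.4 CPM in control, 9.27, 13.9 and 11.3 CPM in knockout, 10.9, 11.8 and 12.7 CPM in vehicle, and 11.9, 10.8 and 15.6 CPM in AzadC. The control libraries were again above all others. Without control 2 or knockout 1 the edgeR adjusted p was 0.0551 to 0.0584. Neuronal marker sums stood at 129.5 to 136 CPM in control and 123 to 126 CPM in knockout without overlap, with 1 marker higher and 1 lower of 10 tested (median -0.32), and their part in the fall of Eno2 was not tested. Eno1, Pgam1, Pkm and Aldoa passed no test in any comparison, and their knockout and control libraries overlapped, although with the replicate block Eno1 was higher in the knockout by 0.27 (edgeR adjusted p = 0.0419). Aldoc, a low aldolase, was at 1.55 to 1.72 CPM in knockout and 2.34 to 3.82 CPM in control (-0.93 ± 0.30, edgeR adjusted p = 0.0556). The second row of Aldoa lay at 0.685 to 1.77 CPM and passed no test.

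At the branch between lactate and the mitochondrion, Pdk1 (ENSMUSG00000006494, chr2:71873224-71903858 on the plus strand, mm10), the kinase that shuts pyruvate dehydrogenase and so keeps pyruvate out of the citric acid cycle, stood at 47.9, 43.8 and 53.6 CPM in control and 28.9, 29.6 and 32.9 CPM in knockout. In vehicle it stood at 37.2, 39.7 and 30.0 CPM, and in AzadC at 45.7, 45.3 and 47.6 CPM. Knockout lay below control and AzadC, and vehicle lay below control but overlapped knockout. Pdk1 fell by 0.67 ± 0.11 in the knockout on the log2 scale (edgeR adjusted p = 0.00119), and the call was kept under every alternative (highest adjusted p over edgeR, DESeq2 and limma-voom 0.00897). In TPM the fall was smaller, from a mean of 19.25 ± 1.81 (SD, n = 3) in control to 15.41 ± 0.51 in knockout. The CPM means were 48.4 and 30.5. Ldha, which turns pyruvate into lactate, stood at 426, 317 and 363 CPM in control, 313, 340.0 and 324 CPM in knockout, 386, 307 and 289.9 CPM in vehicle, and 378, 405 and 389 CPM in AzadC. Its groups overlapped apart from AzadC against knockout, and its change in the knockout was -0.18 ± 0.11 (edgeR adjusted p = 0.32). Slc16a3, the lactate exporter MCT4, stood at 16.9, 9.65 and 11.8 CPM in control, 8.59, 10.7 and 8.65 CPM in knockout, 9.03, 8.03 and 8.31 CPM in vehicle, and 10.9, 12.9 and 15.7 CPM in AzadC. AzadC lay above both knockout and vehicle, and knockout overlapped control (-0.46 ± 0.20, edgeR adjusted p = 0.151).

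**Figure D3:**
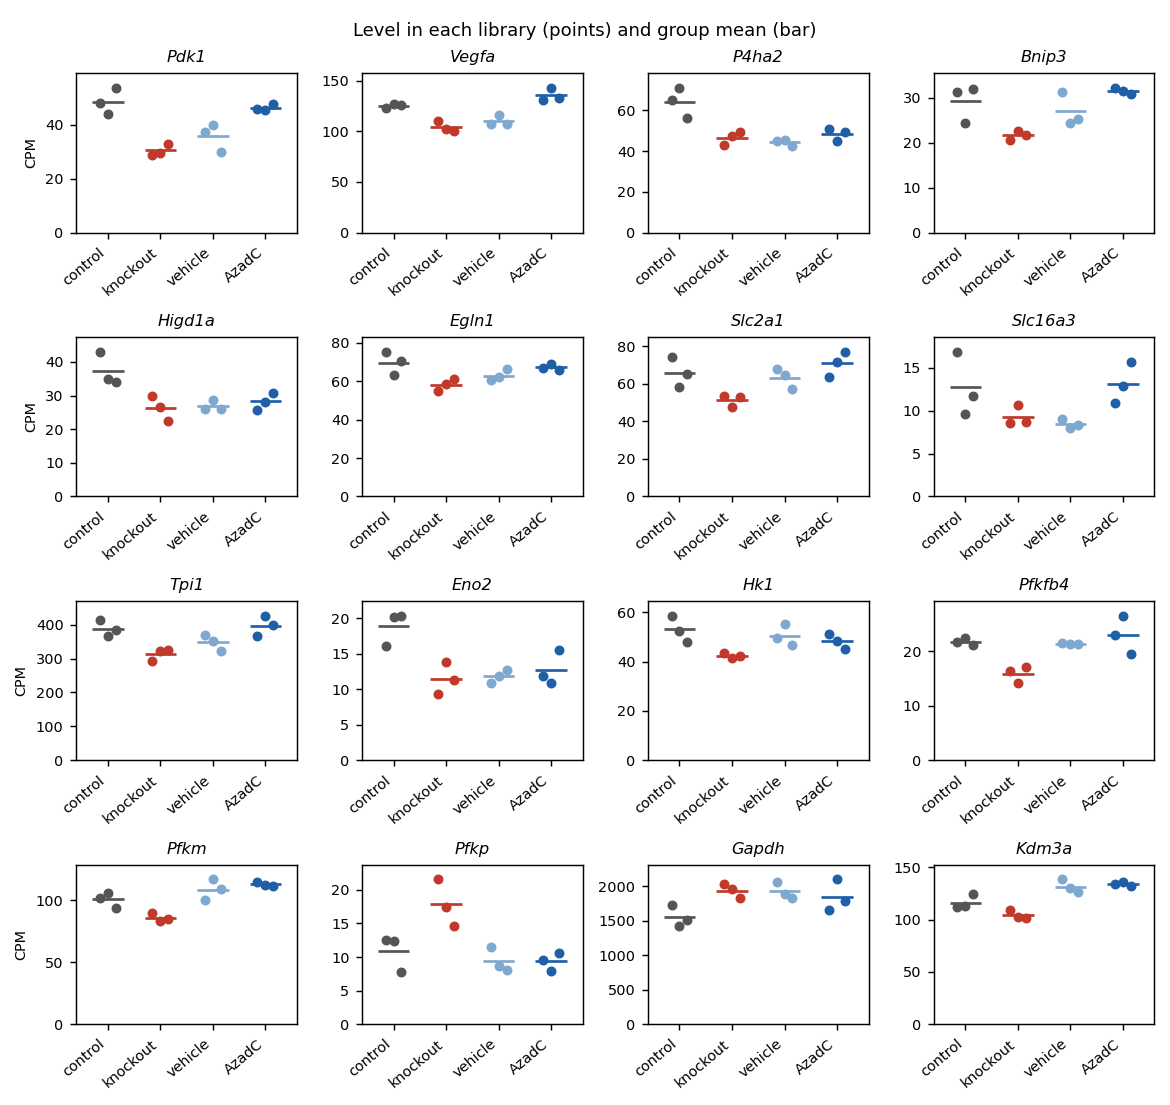
Level in CPM of the 16 members that passed the test in any comparison. Each point is 1 library and each bar is the group mean of 3. Bnip3, Slc2a1, Hk1 and Pfkfb4 have their 3 lowest libraries in the knockout, Higd1a, P4ha2 and Eno2 have their 3 highest in the control, and the knockout libraries of Pfkp (14.6 to 21.6 CPM) are the highest of the 12.

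The wild type references differed at 4 members, all lower in vehicle than in control by edgeR: P4ha2, Higd1a, Eno2 and Pdk1. Over all genes 2.06% were lower and 1.46% higher, 3.52% in all. No member was higher by edgeR (3 of 38 at an unadjusted p below 0.05, against 8.91% of all genes; 1 by DESeq2 and 0 by limma-voom). P4ha2 changed by -0.54 ± 0.09 (edgeR adjusted p = 0.00832), kept under every alternative. Pdk1 changed by -0.44 ± 0.11 (edgeR adjusted p = 0.0389), Higd1a by -0.47 ± 0.12 (edgeR adjusted p = 0.0488) and Eno2 by -0.67 ± 0.17 (edgeR adjusted p = 0.0491). The 3 last calls depended on single libraries: Pdk1 was lost without control 1, control 3, vehicle 1 or vehicle 3 (edgeR adjusted p = 0.0674 to 0.133), Higd1a without each of the 6 libraries (0.0575 to 0.152), and Eno2 without any but control 1 (0.104 to 0.169). Fitted on vehicle and control alone, Pdk1 and Higd1a were lost (edgeR adjusted p = 0.0983 and 0.0631), and with upper-quartile scaling Higd1a and Eno2 were (0.053 and 0.0501). This comparison shares the control libraries with the knockout comparison, and the same 4 members were lower in both. Markers of other cell types differed here too. Of the bone markers 5 of 8 tested were lower in vehicle (245 to 466 against 684 to 904 CPM, median -0.97), and of the cartilage markers 2 of 10 were (1581 to 1757 against 1090 to 3403 CPM, median -1.30). Of the erythroid markers 4 of 13 were higher (3963 to 5530 against 2088 to 5651 CPM, median 0.93), and of the macrophage markers 2 of 12. Of the epithelial markers 2 of 12 were lower, of the neuronal markers 1 was higher and 2 lower of 10, and of the palatal mesenchyme markers 0 of 14 passed the test. Skeletal muscle markers had 0 of 14 past the test (53.2 to 497 against 8.10 to 122 CPM, median 1.67). Their part in the 4 members was not tested. No label gives a batch, so the vehicle and any difference in handling between these groups cannot be told apart. Against the vehicle in place of the control, 3 members were lower in the knockout (Pfkm, Pfkfb4 and Kdm3a) and 1 was higher (Pfkp). In that comparison 4.13% of all genes were lower and 6.7% higher, 10.8% in all. None of P4ha2, Higd1a, Eno2 and Pdk1 passed it, with changes of 0.07 ± 0.09, -0.03 ± 0.12, -0.05 ± 0.17 and -0.23 ± 0.11.

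With AzadC, no member passed the edgeR test in either direction, and over all genes 0.00577% were higher and 0.00577% lower (1 gene each, 0.0115% in all). At an unadjusted p below 0.05 by edgeR, 7 members were higher and 0 lower, against 3.89% of all genes higher and 2.49% lower. DESeq2 called 1 member, Vegfa, higher (adjusted p = 0.00288), and limma-voom called 0. The AzadC libraries lay above all vehicle libraries for 6 members, Vegfa, Pdk1, Slc16a3, Epas1, Egln3 and Aldoa (15.8% of members, against 6.1% of all genes), and below them for 0 (against 5.76%). Of the 38 estimates, 76.3% were positive, where 48.6% were positive over all genes, and the median was 0.09 against -0.00. The named changes were 0.30 ± 0.06 for Vegfa (edgeR adjusted p = 0.136), 0.38 ± 0.11 for Pdk1 (0.484), 0.65 ± 0.20 for Slc16a3 (0.574), 0.56 ± 0.25 for Egln3 (0.772) and 0.21 ± 0.10 for Aldoa (0.793).

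The knockout effect minus the AzadC effect, each against its own reference, was below 0 beyond the threshold for 6 members: Pdk1, Vegfa, Tpi1, P4ha2, Bnip3 and Slc16a3 (edgeR). Over all genes 2.2% had a lower and 2.2% a higher difference, 4.4% in all, and no member had a higher one (2 of 38 at an unadjusted p below 0.05, against 10.2% of all genes; 0 by DESeq2 and 0 by limma-voom). For Pdk1 the difference was -1.04 ± 0.15 (log2, SE; edgeR adjusted p = 0.00239) and for Vegfa it was -0.56 ± 0.08 (edgeR adjusted p = 0.00269). Both stayed past the threshold under every alternative. Tpi1 differed by -0.49 ± 0.11 (edgeR adjusted p = 0.0209), P4ha2 by -0.60 ± 0.13 (0.019), Bnip3 by -0.66 ± 0.17 (0.0417) and Slc16a3 by -1.11 ± 0.28 (0.0447). Tpi1 was lost without knockout 1 or vehicle 3 (edgeR adjusted p = 0.0538 to 0.055), and P4ha2 without control 2, knockout 2, vehicle 3, AzadC 1 or AzadC 3 (0.0509 to 0.0532). Bnip3 was lost without any library other than control 2 or vehicle 1 (edgeR adjusted p = 0.0609 to 0.0954), and Slc16a3 without any but control 2 (0.0501 to 0.111). The count of 6 fell to 3 without knockout 1, knockout 2 or AzadC 1 and to 2 without vehicle 3. Set directly beside AzadC, the knockout libraries lay below all AzadC libraries for 17 members (44.7%, against 14.2% of all genes) and above them for 1, Pfkp (2.63%, against 16%). The 17 include Pdk1, Vegfa, Tpi1, Bnip3 and Slc16a3, while P4ha2 overlapped. The difference of the effects contains the whole gap between vehicle and control. That gap was -0.60 for Slc16a3, -0.54 for P4ha2, -0.44 for Pdk1, -0.18 for Vegfa, -0.16 for Tpi1 and -0.12 for Bnip3 (log2).

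Within families of isozymes, shares of the summed TPM showed which member carried the level. Slc16a1, the monocarboxylate transporter MCT1, made up 48.2% ± 4.09 (SD, n = 3) of the summed Slc16a1 and Slc16a3 level in control, 67.5% ± 3.34 in knockout, 58.1% ± 5.74 in vehicle and 52.0% ± 5.61 in AzadC. Its knockout shares lay above those of all other libraries (exact two-sided permutation test against control p = 0.1, the smallest that 3 against 3 allows). Pfkp made up 3.68% ± 0.912 of the phosphofructokinases in control and 7.26% ± 0.824 in knockout (exact permutation p = 0.1), again the 3 highest libraries. Pfkfb4 made up 26.8% ± 1.67 of its 4-member family in control, 18.7% ± 2.35 in knockout, 25.6% ± 2.81 in vehicle and 28.7% ± 3.63 in AzadC. Ldha made up 55.9% ± 4.15 of Ldha and Ldhb in control, 54.7% ± 1.42 in knockout and 52.5% ± 1.83 in AzadC, but 45.0% ± 2.75 in vehicle, whose libraries lay below all others. The 4 Pdk genes together stood at 58.5 to 62.9 TPM in knockout, 79.1 to 85.7 TPM in control, 74.9 to 79.0 TPM in vehicle and 73.1 to 84.5 TPM in AzadC. Pdk1 made up 23.7% ± 2.9 of that sum in control and 25.4% ± 1.77 in knockout, so its share overlapped while the family's sum was lower in every knockout library. Hk3, the hexokinase of myeloid cells, made up 1.14% ± 0.682 of the hexokinases in control and 5.36% ± 0.859 in knockout (exact permutation p = 0.1), beside the higher macrophage markers given above.

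**Figure D4:**
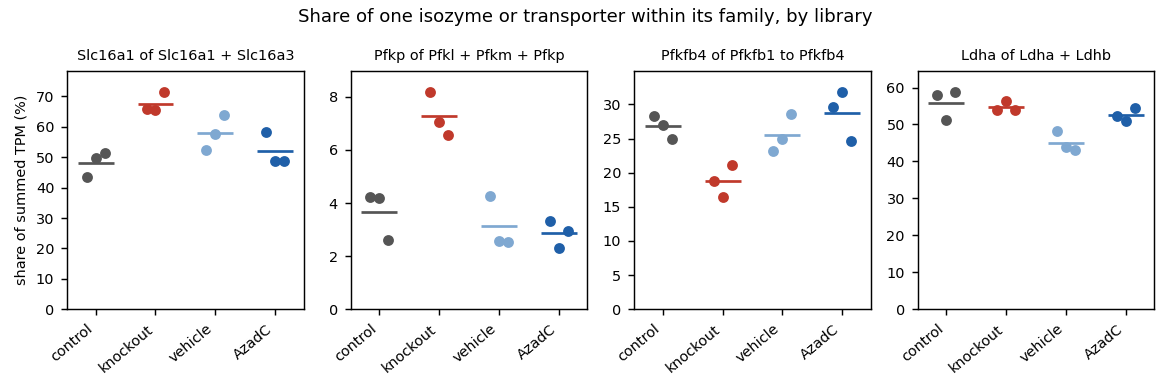
Share (%) of the summed TPM of a family that 1 isozyme or transporter makes up, in each library (points) with the group mean (bar). Knockout shares of Slc16a1 (65.4 to 71.3%) and Pfkp (6.56 to 8.17%) lie above, and those of Pfkfb4 (16.4 to 21.1%) below, all other libraries, and for Ldha the vehicle libraries are the lowest.

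Other genes of the pathway were read from lists of their own. Their knockout counts stand beside 7.83% of all genes tested higher and 6.43% lower than in control. Of 17 further HIF regulators, 2 rose and 2 fell in the knockout against the control (edgeR), with a median of -0.05 (log2). Higher were Hsp90ab1 and Hsp90aa1, chaperones that hold HIF alpha among many clients, by 0.61 ± 0.06 (edgeR adjusted p = 1.35e-05) and 0.79 ± 0.10 (0.000148). Lower was Hif3a, a HIF alpha relative with forms that restrain the others. It stood at 71.2, 72.4 and 82.8 CPM in control, 43.4, 49.8 and 54.0 CPM in knockout, 56.9, 59.3 and 63.2 CPM in vehicle, and 76.0, 66.5 and 74.7 CPM in AzadC. The knockout libraries were the 3 lowest (-0.62 ± 0.09, edgeR adjusted p = 0.00061). Siah2, a ubiquitin ligase that degrades Egln proteins, was lower by -0.47 ± 0.14 (edgeR adjusted p = 0.0417), and without each of the 6 libraries in turn its adjusted p was 0.0767 to 0.128, and with the replicate block it was 0.0682.

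Of 25 tested genes for other glycolytic isozymes and for lactate or pyruvate handling, 4 were higher and 3 lower in the knockout (edgeR), with a median of -0.10. Slc16a1 stood at 34.1, 30.5 and 31.0 CPM in control, 45.4, 51.9 and 46.3 CPM in knockout, 29.6, 30.2 and 31.6 CPM in vehicle, and 31.4, 31.6 and 34.4 CPM in AzadC. All knockout libraries lay above the other 9 (0.59 ± 0.08, edgeR adjusted p = 0.000376). Pdk2, the broadly expressed relative of Pdk1, stood at 32.4, 37.2 and 34.2 CPM in control and 19.4, 20.8 and 25.5 CPM in knockout (-0.66 ± 0.13, edgeR adjusted p = 0.00372). Slc16a7, the monocarboxylate transporter MCT2, was lower by -0.74 ± 0.20 (edgeR adjusted p = 0.0269; 0.0525 to 0.107 without control 2, control 3 or any single knockout library), and Hk3 was higher by 1.62 ± 0.44 (edgeR adjusted p = 0.0251; 0.0506 to 0.0745 without any single knockout library). The other 3, named after their values were seen, were Pgam2, the muscle phosphoglycerate mutase, and Pfkfb1, both higher, and Slc2a4, the insulin-responsive glucose transporter GLUT4, which was lower. The levels of Pgam2 in knockout 1, 2 and 3 were 13.5, 8.12 and 6.22 CPM, in the order of their muscle marker sums. Their macrophage, endothelial and neuronal marker sums had the same order.

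Of 38 further genes known to be raised by hypoxia, 6 were higher and 6 lower in the knockout (edgeR), with a median of -0.02. Hspa9, a mitochondrial chaperone, was higher by 0.48 ± 0.06 (edgeR adjusted p = 0.000222), Hmox1, which breaks down haem, by 1.09 ± 0.17 (0.000921), and Stc2, a secreted glycoprotein also induced by the integrated stress response, by 2.93 ± 0.55 (0.00347). Stc2 stood at 1.58, 0.613 and 0.513 CPM in control and 7.67, 9.69 and 4.15 CPM in knockout. Ppp1r3b, a glycogen-targeting phosphatase subunit, was lower by -0.97 ± 0.13 (edgeR adjusted p = 0.000246). Of 7 pentose phosphate genes none passed (0 higher and 0 lower by edgeR), and of 22 citric acid cycle and pyruvate dehydrogenase genes 2 were higher and 0 lower. These were Cs, citrate synthase, at 0.23 ± 0.05 (edgeR adjusted p = 0.00957), and Mdh2 at 0.27 ± 0.07 (edgeR adjusted p = 0.0238; 0.0619 to 0.104 without control 2, control 3, knockout 1 or knockout 2). With AzadC against vehicle, edgeR called 0 genes of any of these lists in either direction.

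The promoters of members that passed a test were searched for the HIF core, the letters ACGTG or GCGTG on either strand (on the other strand CACGT or CACGC), in the 250 bases before the start site in RefSeq (GRCm38.p6, the assembly called mm10). A RefSeq promoter was matched for 34 of 38 members. The 6 shown here had the largest knockout changes among the members that passed and held a core. Eno2, with a larger fall than any of them, held none. Each is written 5′ to 3′ on the gene's own strand with the cores in capitals.
Pfkp: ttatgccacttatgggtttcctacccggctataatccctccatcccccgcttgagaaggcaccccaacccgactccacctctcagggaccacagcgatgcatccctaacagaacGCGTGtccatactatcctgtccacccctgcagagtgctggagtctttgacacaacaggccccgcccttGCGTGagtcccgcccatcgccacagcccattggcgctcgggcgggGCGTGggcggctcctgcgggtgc
Pdk1: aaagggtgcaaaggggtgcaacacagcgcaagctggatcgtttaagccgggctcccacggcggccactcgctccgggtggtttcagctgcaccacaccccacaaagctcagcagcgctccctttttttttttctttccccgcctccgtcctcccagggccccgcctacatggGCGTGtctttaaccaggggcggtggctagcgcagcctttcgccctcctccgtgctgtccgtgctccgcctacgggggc
Higd1a: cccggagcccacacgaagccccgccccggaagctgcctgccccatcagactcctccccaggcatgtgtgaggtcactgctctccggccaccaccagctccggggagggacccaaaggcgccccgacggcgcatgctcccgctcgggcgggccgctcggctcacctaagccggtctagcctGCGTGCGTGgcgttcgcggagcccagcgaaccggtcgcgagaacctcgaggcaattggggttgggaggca
P4ha2: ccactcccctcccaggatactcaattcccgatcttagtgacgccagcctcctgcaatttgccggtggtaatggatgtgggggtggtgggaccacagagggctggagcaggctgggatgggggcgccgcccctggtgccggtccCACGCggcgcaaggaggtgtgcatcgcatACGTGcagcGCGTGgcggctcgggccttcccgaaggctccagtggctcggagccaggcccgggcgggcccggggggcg
Pfkfb4: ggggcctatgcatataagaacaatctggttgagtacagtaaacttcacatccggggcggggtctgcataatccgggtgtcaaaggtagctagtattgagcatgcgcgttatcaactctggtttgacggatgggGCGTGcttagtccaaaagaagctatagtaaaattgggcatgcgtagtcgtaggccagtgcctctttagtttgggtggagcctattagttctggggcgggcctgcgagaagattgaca
Bnip3: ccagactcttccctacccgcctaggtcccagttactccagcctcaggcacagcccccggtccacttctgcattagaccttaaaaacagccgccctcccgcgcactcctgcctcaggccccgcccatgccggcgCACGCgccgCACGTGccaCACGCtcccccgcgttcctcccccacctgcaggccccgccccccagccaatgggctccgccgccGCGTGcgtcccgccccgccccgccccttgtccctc
The windows lie at chr13:6648772-6649021 on the minus strand for Pfkp (3 cores), chr2:71872974-71873223 on the plus strand for Pdk1 (1 core), chr9:121857797-121858046 on the minus strand for Higd1a (2 cores, which share 1 base), chr11:54100674-54100923 on the plus strand for P4ha2 (3 cores), chr9:108991652-108991901 on the plus strand for Pfkfb4 (1 core), and chr7:138909507-138909756 on the minus strand for Bnip3 (5 cores, of which those on both strands overlap in CACGTG). For P4ha2 and Higd1a the RefSeq start lies 828 and 565 bases inside the gene as GENCODE M21 draws it. Pfkp, whose level rose, and Pdk1, P4ha2 and Bnip3, whose levels fell, all hold cores of the same letters.

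Of the 34 matched members 26 (76.5%) held a core, against 38.6% of all 32851 promoters in the table. The cores contain CpG, and member promoters held a median of 14 CpG against 6 over the table. Among the 9646 promoters with at least 14 CpG, 67.3% held a core. Their median was 22 CpG, so this set was richer in CpG than the members and is not matched to them. Of the 12 members that fell in the knockout 8 (66.7%) held a core, and of the other 22 matched members 18 (81.8%) did. Those 18 include Ldha, Ankrd37 and Hif1a, whose RefSeq starts lay 4328, 5856 and 6491 bases from the GENCODE start. Tpi1, Eno2, Vegfa and Hk1, which fell, had none in this window. For Vegfa and Hk1 a second RefSeq promoter, farther from the GENCODE start, held a core. A match is a run of letters, and neither binding nor methylation was measured here.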

How the data were processed

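The strandedness of the libraries, the authors' annotation release and the AzadC dose were not given in the sources used here. Per the submitters' processing notes, the authors used FastQC, Trim Galore, STAR 2.7.0 and RSEM 1.3.1 on mm10, and DESeq2. The deposited values used here were RSEM expected counts and TPM per gene, per the file headers. RSEM divides reads that fit several copies of a gene, and 18 of the 38 members had fractional counts in some library, 7 of them (Bnip3l, Eno1, Gapdh, Hif1a, Pfkp, Pgam1 and Pkm) in all 12. Replicates shared within a group differed by more than sampling noise (chi-square per gene at least 6.53).

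Expected counts were rounded and fitted in edgeR 4.0.16 (R 4.3.3) with 1 mean per group over all 12 libraries, filterByExpr by group (17335 of 56691 genes kept), TMM factors of 0.985 to 1.015 and quasi-likelihood tests. The common biological coefficient of variation was 0.152. P-values were adjusted by Benjamini-Hochberg over all genes tested, with a threshold of 0.05, and standard errors were derived from each log2 change and its F statistic (the change over the root of F). The fit was checked on simulated data. The members and all gene lists were chosen with earlier results of these data known, and 1 gene of the lists outside the members is not reported here. Members past the threshold in any of 5 comparisons, and Hif1a, Epas1, Vegfa, Slc2a1, Ldha and Pgk1, are given in every library, and of each further list up to 4 genes with the smallest adjusted p are named. Alternatives were DESeq2 1.42.0, limma-voom (limma 3.58.1), RLE and upper-quartile scaling, no filter or a minimum mean of 1 CPM, a replicate block, fits restricted to the libraries being compared, and leaving out each library. For Eno1 the summed counts of Eno1 and its copy Eno1b were added after seeing the data. The labels' replicate numbers name no shared litter or day. The deviations of same-numbered control and knockout libraries from their group means correlated at r of 0.11 to 0.38, all 3 above 0.1. From the data alone, these libraries were therefore also fitted as paired, as an alternative. The fit reported has no block. No other pair of groups had all 3 above 0.1 (r from -0.24 to 0.24). The block was run on all 12 libraries and, added after seeing the data, on the knockout and control libraries alone, which is the block meant beside single genes unless stated. Promoters came from RefSeq (GRCm38.p6) and gene positions from GENCODE M21. The series' design text speaks of pooled animals, and the sampling protocol of 2 embryos per library.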

Additional observations from a re-analysis of the deposited data

Results flagged for a closer look

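Of the 20 members given in every library 6, and of 14 genes named outside the members 9, passed edgeR's test of the difference between the knockout effect and the AzadC effect, each against its own reference (log2, knockout minus AzadC). Over all genes tested 4.4% passed. The gap between vehicle and control is part of this difference. The 14 were named for small adjusted p-values in the knockout comparison, which shares its libraries with this difference, so their count is a description. Over the whole lists they came from, 5 of 109 genes tested had a higher and 4 a lower difference. The 6 members that passed had a lower value: Pdk1 at -1.044, Slc16a3 at -1.109, Bnip3 at -0.659, P4ha2 at -0.599, Vegfa at -0.559 and Tpi1 at -0.494. For these 6 the AzadC estimates were above 0 and the knockout estimates below 0. None of the 6 AzadC estimates passed the edgeR test, nor did the knockout estimate of Slc16a3 (edgeR adjusted p = 0.151). For P4ha2 the AzadC estimate was 0.13 ± 0.09, and the gap between vehicle and control was -0.54 ± 0.09. Slc16a3 and Bnip3 lost the call without most single libraries, and Pdk1 and Vegfa kept it without each.

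Of the named genes outside the members, 4 had a lower difference. These were Ppp1r3b at -1.212, Slc16a7 at -1.239, Hif3a at -0.897 and Pdk2 at -0.695. The other 5 had a higher one, namely Stc2 at 3.995, Hsp90aa1 at 0.925, Hsp90ab1 at 0.673, Slc16a1 at 0.493 and Hspa9 at 0.474. Pdk2 lost the call without 8 of the 12 libraries (control 2 and 3, knockout 1 and 2, vehicle 1 and 3, AzadC 1 and 3; edgeR adjusted p = 0.0646 to 0.114). Slc16a7 also lost it without 8 (control 2, knockout 1 and 2, any vehicle library, AzadC 1 and 3; edgeR adjusted p = 0.0505 to 0.0825). Slc16a1 lost it without 7 (control 2 and 3, knockout 2, vehicle 1 and 3, AzadC 1 and 2; edgeR adjusted p = 0.0521 to 0.0867).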

How the results depend on the processing

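Counts of members past the threshold moved by more than 1.5 times under these settings. DESeq2 called 1 member higher with AzadC against vehicle, 1 higher in vehicle against control, and 11 with a lower difference of the knockout and AzadC effects (6 by edgeR). Upper-quartile scaling, the groups compared alone and the replicate block each left 2 members lower in vehicle against control (4 in the fit reported), and the groups compared alone left 1 member higher in knockout against control, where the replicate block on the knockout and control libraries gave 4. With no filter, 2 members were higher in vehicle against control, 5 lower in knockout against vehicle, and 1 and 10 had a higher and a lower difference. Leaving out 1 library gave, for knockout against control, 5 to 11 lower (12 with all) and 0 to 5 higher (2 with all). For AzadC against vehicle it gave 0 throughout, for vehicle against control 1 to 2 lower and 0 to 1 higher, for knockout against vehicle 2 to 3 lower and 0 to 1 higher, and for the difference 2 to 7 lower and 0 to 1 higher. The cause of these moves was not tested.

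Of 2550 values of single genes under an alternative, 2339 stayed on their side of the threshold, 172 lost the call and 39 gained it. No value past the threshold in either fit changed sign, and 43 values past it in neither did. Of the 14 knockout calls against control, 3 (Pdk1, P4ha2 and Vegfa) were kept under every alternative. None of these 3 passed the test against the vehicle. The replicate block on the 12 libraries took the call from Egln1, Gapdh, Pfkm and Siah2 in knockout against control (edgeR adjusted p = 0.0502, 0.0509, 0.0572 and 0.0635) and from no other gene named there, and it moved the count over all genes from 2473 to 2244. It also took the calls of Pdk1 and Higd1a in vehicle against control (0.0662 and 0.0683) and of Bnip3, Slc16a3 and Slc16a1 in the difference (0.0534, 0.0729 and 0.0538). Summing Eno1 with Eno1b left its knockout change uncalled (0.26 against 0.25). With 3 pooled libraries a group, a member that missed the threshold is not shown to be level between groups.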

Other observations

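Eno1b, a near-identical copy of Eno1, took an uneven part of the enolase counts. It stood at 3.13, 52.2 and 16.9 CPM in control and 2.24, 64.5 and 30.3 CPM in knockout, but at 2.15 to 3.34 CPM in vehicle and 2.36 to 4.18 CPM in AzadC. Library 1 of control and of knockout stood with the vehicle and AzadC libraries, and libraries 2 and 3 stood apart.

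The mean of the 38 members on the centred log2 scale was 0.15, -0.04 and -0.01 in the control libraries, -0.05, -0.09 and -0.15 in the knockout libraries, 0.04, -0.03 and -0.07 in the vehicle libraries, and 0.02, 0.10 and 0.12 in the AzadC libraries. Control 1 was the highest of the 12, and every knockout library lay below every AzadC library.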
